A study of Mus musculus with 26 samples.

Results

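Cytokines and colony-stimulating factors that a tumor cell can secrete were followed in 3 murine EML4-ALK lung cancer lines cultured with or without alectinib, an inhibitor of the ALK tyrosine kinase. The members were chosen by symbol, as every row of the count table that carries the name of Il6, Il33, Il18, Il1a, Il11, Lif, Csf1, Csf2, Csf3 or Tslp when letter case is ignored. All 10 were found, among 55391 rows that name a gene. The symbols alone define the set, but it was drawn up with earlier results of these data known. Lif, Il33, Csf1 and, in some groups, Csf2, Il18 and Csf3 were measured well above the limit of detection, whereas Il6, Il1a, Il11 and Tslp lay at or near it.

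EA1, EA2 and EA3 are epithelial lines grown from lung tumors of C57BL/6 mice, in which an adenovirus carrying Cas9 and guide RNAs had joined Eml4 to Alk. EA1 came from a mouse of another genotype than the mice of EA2 and EA3, so that genotype and line cannot be told apart. Every group shared the fusion and the same medium with serum, and received 100 nM alectinib or the solvent DMSO at 0.1% in 10 cm dishes. Polyadenylated RNA was collected on days 1, 2, 3 and 5 and sequenced as 24 libraries, 4 in each of the 6 groups of line and treatment, so that a group held a single library of each day. These days are those of the sample titles and time labels, whereas the treatment text of the labels names days 1, 3, 5 and 7, so that a value per day rests on the titles. Each line is 1 isolate, and cultured alone it meets no immune cells.

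The members act in separate systems. Lif, Il6 and Il11 belong to the IL-6 family, whose receptors share the signaling chain encoded by Il6st and activate JAK kinases and STAT3. Il33, Il18 and Il1a belong to the IL-1 family. Il33 is held in the nucleus of barrier epithelium and released as an alarm signal, Il18 is stored as a precursor that caspase-1 cleaves, and Il1a is active from damaged cells. Csf1 supports macrophages, Csf2 supports granulocytes, macrophages and dendritic cells, and Csf3 supports neutrophils, and Tslp is an epithelial cytokine that acts on dendritic cells and type 2 lymphocytes. In lung cancer these factors are studied as signals from tumor cells to myeloid and lymphoid cells.

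Library totals ran from 5780062 to 11732401 counts. Values of 3 counts or fewer were treated as being at the floor of detection, which lay between 0.251 and 0.530 CPM, the count scaled to a common library size, and covers counting error only. CPM values were scaled with edgeR's TMM factors. The effect of alectinib was estimated in each line from edgeR's quasi-likelihood model, in which a line on 1 day formed a block and the 4 days served as replicates, and p-values were adjusted (Benjamini-Hochberg) over the 14264 genes that passed the filter on low counts, with a threshold of 0.05. No library was repeated within a day and the labels do not say whether days were separate cultures, so these p-values measure the spread between days. Dusp6, a phosphatase gene transcribed in response to MAPK signaling, fell in all lines, with log2 changes of -2.34, -5.03 and -3.28 for EA1, EA2 and EA3 (adjusted p = 0.000101, 2.02e-06 and 1.26e-05).

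A further 2 libraries carry the label EA3 day 7 and entered only the alternative fits named as all 26 libraries and the values given under their own label. Across the genes tested, the library labelled EA3 DMSO day 7 had a median correlation of 0.955 with the EA2 libraries of its treatment and 0.867 with those of EA3. The library labelled EA3 alectinib day 7 had 0.971 and 0.861. Both therefore stood nearer to EA2 than to the line on their label. Adding them to the fit ended the call of a difference between lines for Il18 and Csf2, as given beside those genes.

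Markers of the cell type were in part as the label has it. Cdh1, Krt8, Krt18 and Krt19, the adhesion molecule and keratins of simple epithelium, were above the floor in every library, but the alveolar genes Nkx2-1 and Sftpc reached at most 7 counts and 1 count. Epcam, another epithelial adhesion molecule, was at 0 counts in every EA2 alectinib library and at most 7 in EA2 DMSO, whereas it rose in EA1 (log2 change 2.45, adjusted p = 0.00497). Cdh1 rose by 1.55 in EA2 and by 0.65 in EA3 (adjusted p = 0.000116 and 0.0237), and its EA1 change was 0.29 (adjusted p = 0.265). Keratin counts, summed over days and not scaled for depth, mostly went down. Krt18 had 64927 DMSO counts against 27105 under alectinib for EA1. EA2 held 63163 against 16243, and EA3 held 54195 against 31491. Krt8 dropped from 9858 to 1665 counts in EA2, where Krt19 went from 12413 to 6653. The exception was Krt19 in EA3, with 45528 counts under DMSO but 48190 under alectinib. These sums were not tested. The summed level of the 7 epithelial markers ran from 1811 to 2695 CPM in EA2 DMSO and from 567 to 1169 CPM in EA2 alectinib. In EA1 the sum was 4633 to 9252 CPM and 3245 to 5367 CPM, and in EA3 it was 4633 to 6680 CPM and 2951 to 6655 CPM. Several leukocyte-defining genes were at or near the floor, with at most 4 counts of Ptprc, 3 of Itgam, 1 of Adgre1 and 1 of Cd3e in any library. Of the 8 leukocyte markers, 5 passed 3 counts in at least 1 library, and Cd68, also found outside leukocytes, was above the floor in all 24. Csf1r reached 73 counts, with 17 to 73 in EA3 alectinib, and Lyz2 reached 10. Their summed level was 1.78 to 94.2 CPM in DMSO and 1.93 to 52.2 CPM in alectinib. Of 4 endothelial markers, 3 passed 3 counts, with a sum of at most 9.39 CPM. The summed level of the 7 fibroblast markers moved with alectinib, with 8.34 to 43.0 CPM in EA1 DMSO and 81.6 to 224 CPM in EA1 alectinib. The range went from 57.9 to 71.2 CPM up to 119.7 to 239 CPM in EA2, and EA3 went from 10.2 to 20.1 CPM up to 84.4 to 249.5 CPM. Of these, 6 passed 3 counts in at least 1 library and Thy1 did not. The part of these transcripts in the cytokine results was not tested, and a change in cell number and a change in RNA per cell cannot be told apart in bulk libraries.

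Of the 10 members, 81 of 240 values were at 3 counts or fewer and 24 of these were 0. Il1a was at or under the floor in 21 of 24 libraries, Il6 and Il11 in 15 each, Tslp in 12, Csf2 and Csf3 in 7 each and Il18 in 4. Lif, Il33 and Csf1 were above it in all 24 libraries. Il6, Il1a and Tslp failed the filter on low counts and were not tested, which left 7 members.

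**Figure D1:**
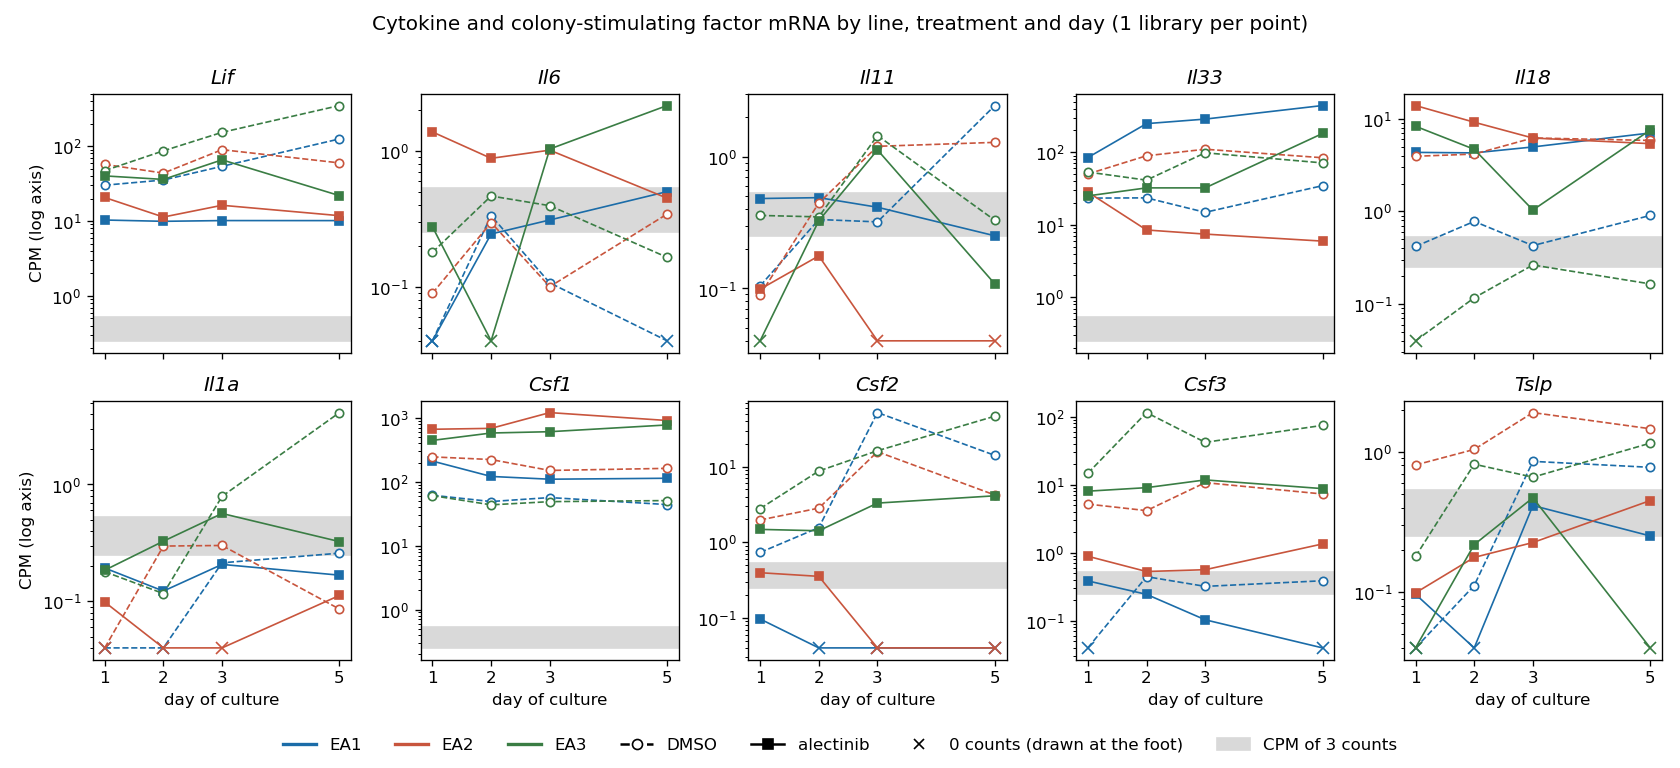
Level of each member in CPM on a log axis, by day of culture, with 1 panel per gene and 1 library per point, open circles and dashed lines for DMSO and filled squares and solid lines for alectinib. Crosses stand for 0 counts and are drawn at the foot of the panel, and the grey band spans the CPM of 3 counts over the 24 libraries, 0.251 to 0.530. Lif and Csf2 lie lower and Csf1 higher in alectinib in all lines, and Il33 rises in EA1 and falls in EA2.

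Alectinib changed 5 of the 7 tested members in each line. In EA1, 3 rose and 2 fell, where 33.6% of all tested genes were past the threshold, 19.0% upward and 14.6% downward. In EA2, 1 rose and 4 fell, against 24.4% of all genes, 13.0% upward and 11.3% downward. In EA3, 2 rose and 3 fell, against 32.6%, 17.5% and 15.1%. The median log2 change of the 7 was -0.37, -2.98 and -0.93 in EA1, EA2 and EA3, beside 0.06, 0.00 and 0.07 over all genes. With no filter on low counts, all 10 members were tested and 5, 7 and 5 were called, but the share of all genes called without the filter was not taken. Scaling by library size alone moved the median of all genes by 0.12 in EA3 and the share of higher among called genes there from 53.6% to 64.7%. In EA2 that share went from 53.5% to 48.3%, so that lower calls became the majority, and in EA1 from 56.6% to 64.6%. Under that scaling none of the 15 called member effects changed direction. Lif and Csf2 fell and Csf1 rose in every line.

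**Figure D2:**
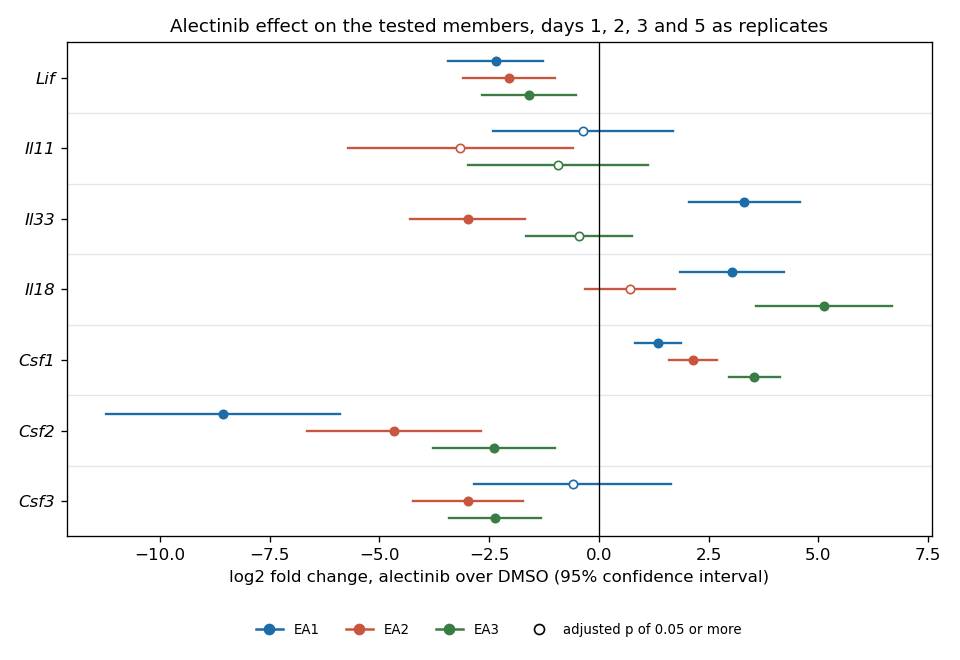
Log2 fold change of alectinib over DMSO with its 95% confidence interval for the 7 members tested, by line. Filled points have an adjusted p under 0.05. Il33 lies at 3.31 in EA1 and at -2.99 in EA2, and Lif, Csf1 and Csf2 each keep 1 direction in the 3 lines. The Csf2 values in EA1 and EA2 rest on alectinib libraries at or near 0 counts and are not bounds.

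The sequences just before the starts of these 3 genes are given because the genes moved in 1 direction in every line. Each is the 250 bases before the RefSeq start, 5′ to 3′ on the gene's strand, in GRCm38.p6 (mm10), with matches to 4 short motifs in capitals. The motifs were searched on both strands: AP-1 (TGANTCA, found in 6.75% of the 32851 RefSeq windows of that length), CRE (TGACGTCA, 1.55%), NF-kB (GGGA, any 4 bases, then CC, 17.6%) and ETS (CCGGAA, 12%). Of the 10 members, 8 had an entry. Lif is at chr11:4257318-4257567 on the plus strand, Csf1 at chr3:107760470-107760719 on the minus strand and Csf2 at chr11:54249900-54250149 on the minus strand.
Lif: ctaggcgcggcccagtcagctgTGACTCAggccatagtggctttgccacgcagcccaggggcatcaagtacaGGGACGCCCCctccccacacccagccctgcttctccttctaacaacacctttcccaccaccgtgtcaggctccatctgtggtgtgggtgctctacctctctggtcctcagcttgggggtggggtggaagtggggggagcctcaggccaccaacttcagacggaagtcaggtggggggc
Csf1: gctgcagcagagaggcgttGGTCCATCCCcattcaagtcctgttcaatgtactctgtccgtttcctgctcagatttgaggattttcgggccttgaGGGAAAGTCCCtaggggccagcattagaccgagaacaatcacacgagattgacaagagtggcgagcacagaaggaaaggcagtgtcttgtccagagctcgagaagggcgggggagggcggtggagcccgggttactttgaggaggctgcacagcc
Csf2: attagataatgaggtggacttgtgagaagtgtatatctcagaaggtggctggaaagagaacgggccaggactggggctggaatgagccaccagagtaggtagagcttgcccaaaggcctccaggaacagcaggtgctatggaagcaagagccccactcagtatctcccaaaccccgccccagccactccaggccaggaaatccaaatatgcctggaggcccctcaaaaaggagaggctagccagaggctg
The capitals in Lif mark 1 AP-1 match, from position -228 to -222 with the start as 0, and 1 NF-kB match, from -178 to -169. Those in Csf1 mark 3 NF-kB matches, with first bases at -231, -155 and -154, the last pair overlapping. Csf2 had no match in this window, which ends at a RefSeq start that lies 232 bases before the GENCODE start. A match is a run of letters and not a measured site.

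Lif, leukemia inhibitory factor, lies on chromosome 11 from 4257557 to 4272514 on the plus strand of mm10. In EA1 its level in DMSO was 30.1, 35.3, 53.9 and 125 CPM on days 1, 2, 3 and 5, and in alectinib it was 10.3, 9.92, 10.1 and 10.1 CPM. In EA2 the same days gave 57.1, 43.7, 89.8 and 59.8 CPM in DMSO and 20.6, 11.3, 16.2 and 11.8 CPM in alectinib. In EA3 they gave 47.2, 86.7, 153 and 349 CPM in DMSO and 40.1, 36.0, 65.7 and 21.9 CPM in alectinib. Lif was lower in alectinib on all 4 days in each line. The 2 treatments did not overlap in EA1 or EA2, but they did in EA3, where the DMSO library of day 1 lay within the alectinib range.

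Lif fell in EA1 with a log2 change of -2.35 ± 0.50 (standard error, adjusted p = 0.00333). The log2 change in EA2 was -2.06 ± 0.48 (adjusted p = 0.00764), and that in EA3 was -1.60 ± 0.49 (adjusted p = 0.0255). A difference of the effect between lines was not detected (2 degrees of freedom, adjusted p = 0.715), and the interval for EA3 minus EA1 ran from -0.73 to 2.25. The EA2 call was lost without day 3 (adjusted p = 0.0767). The EA3 call was lost without day 2 (adjusted p = 0.0736), without day 3 (0.0793) and with the line fitted alone (0.108), and without day 5 the EA3 value was -0.91 (adjusted p = 0.0304).

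Over days, the Lif level rose in DMSO by 0.87 per doubling of days in EA1 (log2 scale, adjusted p = 0.0441) and by 1.24 in EA3 (adjusted p = 0.00559), the only calls among the 7 tested members in the 6 groups. The share of all genes called was 3.64% in EA1 DMSO and 11.3% in EA3 DMSO, and it was 0% in EA2 DMSO and EA1 alectinib, 0.0631% in EA2 alectinib and 0.491% in EA3 alectinib. At an unadjusted p under 0.05, 11 of the 42 member slopes would have passed, but the share of all genes at that threshold was not taken. Lif in EA1 was not called without day 1 (0.791), day 2 (0.198) or day 5 (0.529), nor in EA3 without day 1 (adjusted p = 0.853), day 2 (0.0529) or day 5 (0.148). In alectinib the Lif slopes of EA1, EA2 and EA3 were -0.01, -0.29 and -0.15, none of them past the threshold, and the EA3 slope was 0.40 without day 5. For each doubling of days, the difference between alectinib and DMSO moved by -1.46 in EA3 (adjusted p = 0.0952). It was past the threshold without day 3 (-1.63, adjusted p = 0.0333) and with no filter on low counts (0.0291), but was -0.66 without day 5 (0.82) and -2.14 without day 1 (0.907).

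Il11, a fibrosis-associated cytokine of the same family on chromosome 7 from 4772373 to 4782859, was scarce. In EA1 the counts in DMSO were 1, 3, 3 and 19, and in alectinib 5, 4, 4 and 3. In EA2 they were 1, 3, 12 and 15 in DMSO and 1, 1, 0 and 0 in alectinib, and in EA3 they were 4, 3, 11 and 2 in DMSO and 0, 3, 12 and 1 in alectinib. The treatments overlapped in every line. No effect was called, with log2 changes of -0.37, -3.15 and -0.93 (adjusted p = 0.793, 0.0714 and 0.479).

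The EA2 value of Il11 was past the threshold without day 1 (-4.09, adjusted p = 0.0436) and with no filter on low counts (-3.14, adjusted p = 0.0256). Without day 5, the EA1 value turned to 0.84 (adjusted p = 0.538), as the DMSO library of that day held 19 of the 26 DMSO counts. Summed over days, EA2 had 2 counts in alectinib and 31 in DMSO, a ratio of 0.0760 after scaling for depth (95% counting interval 0.00881 to 0.299). Such an interval covers counting error and leaves out the spread between days. With any 1 day left out, the ratio ran from 0.0403 without day 1 to 0.141 without day 5.

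Il6, which drives the acute-phase response, lies on chromosome 5 from 30013114 to 30019981. Its counts in EA1 were 0, 3, 1 and 0 in DMSO and 0, 2, 3 and 6 in alectinib. In EA2 they were 1, 2, 1 and 4 in DMSO and 14, 5, 9 and 4 in alectinib, and in EA3 they were 2, 4, 3 and 1 in DMSO and 3, 0, 11 and 20 in alectinib. In EA2 the alectinib libraries were higher on all 4 days, and the CPM ranges did not overlap. In EA1 and EA3 they overlapped.

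Summed over the days, Il6 had 32 counts in alectinib and 8 in DMSO in EA2, a ratio of depth-scaled counts of 4.71 (95% counting interval 2.13 to 11.8). The ratio was 2.85 (1.37 to 6.46) in EA3 and 2.44 (0.724 to 10.5) in EA1. Without day 5 the Il6 ratios were 7.92 in EA2, 1.39 (0.559 to 3.63) in EA3 and 1.24 in EA1. Without day 1 the EA2 ratio was 3.11, and without day 2 it was 4.58 in EA3 and 7.51 in EA1. With no filter on low counts, the log2 changes of Il6 were 1.17, 2.10 and 0.90, and none was called in any of the 3 alternatives that tested it (adjusted p from 0.0952 to 0.800). No change in Il6 passed the test at this depth.

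Of 15 other genes of the IL-6 family, its receptors and its signaling, 10 were tested. Alectinib raised 3 and lowered 1 in EA1, raised 1 and lowered 2 in EA2, and raised 2 and lowered 2 in EA3. These 4, 3 and 4 calls stand beside 33.6%, 24.4% and 32.6% of all tested genes. The median log2 change was 0.02, 0.39 and 0.03, and 0.04, 0.14 and 0.03 once genes at or under the floor in all 8 libraries of the line were left out. Osm, Il27, Ebi3 and Il31ra were at or under 3 counts in all 24 libraries.

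Il6st, the shared signaling chain, rose in EA1 from 166 ± 37.7 to 464 ± 46.1 CPM (SD, n = 4 days). Its mean went from 86.7 ± 9.24 to 248 ± 73.3 CPM in EA2, and EA3 went from 127 ± 52.7 to 281 ± 103 CPM. The log2 changes of Il6st were 1.5, 1.48 and 1.19 (adjusted p = 0.00108, 0.00153 and 0.00536), and the EA3 call was lost without day 2 (0.0662) or day 5 (0.0558). Lifr, the receptor chain that binds Lif, fell in EA2 from 26.1 ± 6.22 to 7.05 ± 3.10 CPM (log2 change -1.93, adjusted p = 0.00262). Its EA3 level fell from 55.4 ± 42.7 to 18.6 ± 15.2 CPM (-1.47, adjusted p = 0.00923). In EA1 it was 12.8 ± 4.40 and 8.88 ± 0.664 CPM (adjusted p = 0.355). Lif and, in 2 lines, Lifr were thus lower together, while Il6st was higher.

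Socs3, a feedback inhibitor that STAT3 induces, fell, with log2 changes of -0.82, -1.62 and -2.34 for EA1, EA2 and EA3 (adjusted p = 0.0357, 0.00107 and 8.28e-05). The EA1 call was lost with library size alone as scaling (0.0548) and without day 2 (0.0831), day 3 (0.0725) or day 5 (0.0755).

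Il11ra1, the receptor of Il11, rose in EA1 from 0.226 ± 0.0224 to 0.789 ± 0.612 CPM (log2 change 1.59, adjusted p = 0.0184), where each DMSO library held 2 counts, under the floor, and in EA3 from 5.05 ± 2.70 to 13.8 ± 9.36 CPM (1.42, adjusted p = 0.00344). The EA1 call was lost without day 3 (adjusted p = 0.127) or day 5 (0.184) and with no filter on low counts (0.0516). Ctf1, cardiotrophin, rose in EA1 from at most 2 counts to between 4 and 8 counts (log2 change 2.80, adjusted p = 0.0277). That call was lost without day 2 (0.0809), day 3 (0.174) or day 5 (0.079).

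Il33 lies on chromosome 19 from 29925114 to 29960718 on the plus strand. It moved in opposite directions in EA1 and EA2. In EA1 its level was 23.3, 23.5, 14.9 and 34.6 CPM in DMSO and 84.5, 248, 287 and 441 CPM in alectinib. In EA2 it was 50.1, 89.5, 110.1 and 84.0 CPM in DMSO and 28.2, 8.48, 7.44 and 5.96 CPM in alectinib. In EA3 it was 53.4, 41.3, 98.3 and 71.3 CPM in DMSO and 25.0, 32.3, 32.3 and 182 CPM in alectinib. The treatments did not overlap in EA1 or EA2. In EA3 alectinib was lower on days 1, 2 and 3 and higher on day 5.

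The log2 change of Il33 was 3.31 ± 0.58 in EA1 (standard error, adjusted p = 0.00108) and -2.99 ± 0.61 in EA2 (adjusted p = 0.0033). In EA3 it was -0.45 ± 0.56 (adjusted p = 0.567). The effect differed between lines (2 degrees of freedom, adjusted p = 0.00251). It was 1 of 4 members with such a difference, where 6.84% of all genes had one. Between pairs of lines, the effect differed for 1 member between EA2 and EA1 (6.44% of genes), 2 between EA3 and EA1 (1.79%) and 2 between EA3 and EA2 (2.86%). EA2 differed from EA1 by -6.30 (95% confidence interval -8.12 to -4.48, adjusted p = 0.0013) and EA3 from EA1 by -3.77 (-5.49 to -2.04, adjusted p = 0.0348), while EA3 and EA2 were not told apart (2.54, interval 0.78 to 4.29, adjusted p = 0.114).

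Without day 3 the test of Il33 between lines missed the threshold (adjusted p = 0.0514). Without day 1 the EA2 value was -3.70, and without day 5 the EA3 value was -1.02 (adjusted p = 0.218). In EA3 the value without a replicate block was 0.04 (adjusted p = 0.97), so that no direction is given for this line. The Il33 slope in alectinib, per doubling of days, was 0.99 in EA1 (adjusted p = 0.663) and -0.99 in EA2 (adjusted p = 0.411). Without day 1 the EA2 slope was -0.39. In EA3 it was 1.17 (adjusted p = 0.0598), 1.25 without day 3 (0.0146) and 0.25 without day 5 (1), so that it rests on the day 5 library.

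**Figure D3:**
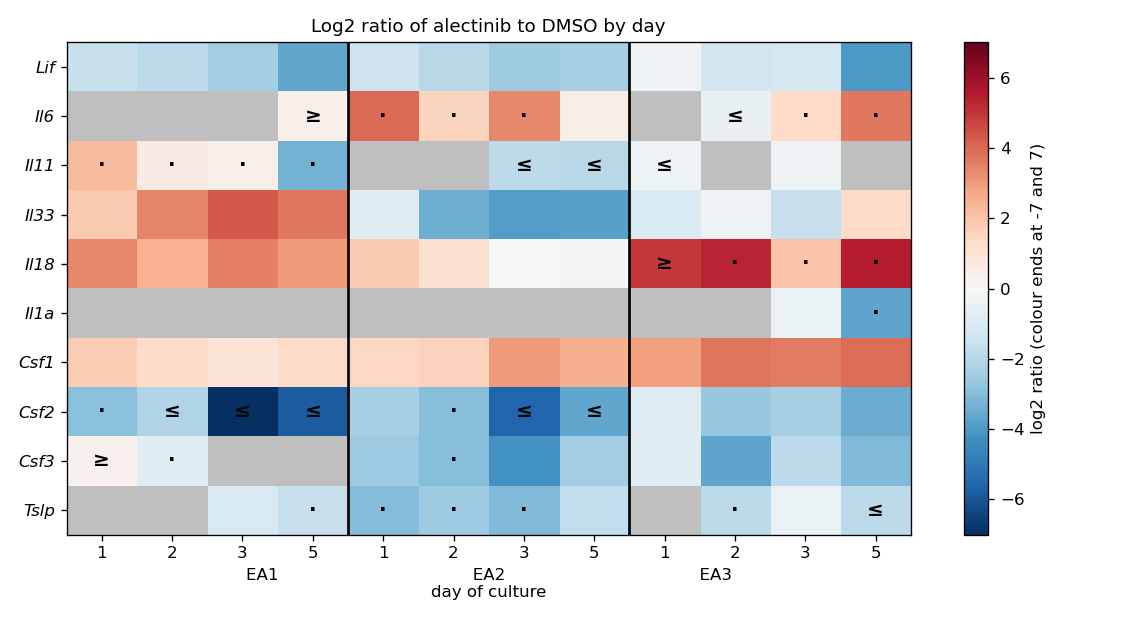
Log2 ratio of alectinib to DMSO CPM for each member, line and day, in red where alectinib was higher and in blue where it was lower, with the colour ending at -7 and 7. Grey cells had 3 counts or fewer in both libraries and no ratio. A dot marks a ratio with 1 to 3 counts in 1 library, and the signs for at least and at most mark bounds set by the floor of 3 counts against a library at 0. Csf1 is red in all 12 columns and Lif is blue in all 12, while Il33 is red throughout EA1 and blue throughout EA2.

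Il18, on chromosome 9 from 50554827 to 50581840, was near the floor in 2 of the 3 lines in DMSO. In EA1 its counts were 4, 7, 4 and 7 in DMSO and 45, 35, 48 and 84 in alectinib. In EA2 they were 44, 28, 62 and 68 in DMSO and 141, 52, 55 and 48 in alectinib. In EA3 they were 0, 1, 2 and 1 in DMSO and 90, 43, 11 and 70 in alectinib. Alectinib libraries were above every DMSO library in EA1 and EA3, whereas in EA2 they were higher on days 1 and 2 and no higher on days 3 and 5, where CPM was 6.22 and 5.84 in DMSO and 6.20 and 5.39 in alectinib.

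Il18 rose in EA1 by a log2 change of 3.03 (standard error 0.55, adjusted p = 0.00118) and in EA3 by 5.13 (standard error 0.72, adjusted p = 0.000214), while EA2 had 0.70 (standard error 0.48, adjusted p = 0.312). As the EA3 DMSO libraries held 4 counts in all, its ratio was also taken from the sums of the days, 214 counts against 4, which gave 44.8-fold (95% counting interval 17.2 to 166), 23.7-fold without day 1 and 89.5-fold without day 3. On day 1, with 0 counts in DMSO, alectinib was at least 30.9-fold higher against the floor of 3 counts. The EA3 value was 4.24 without day 1, 6.15 without day 3 and 3.88 with all 26 libraries, where those labelled day 7 join EA3.

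The effect on Il18 differed between lines (adjusted p = 0.019), with EA3 above EA2 by 4.42 (95% confidence interval 2.53 to 6.32, adjusted p = 0.0186). That between-line call was lost without day 2 (adjusted p = 0.064), without day 5 (0.145) and with all 26 libraries (0.0902). The last fit takes as EA3 the libraries labelled day 7, which stood nearer to EA2. EA1 was not told apart from EA2 (EA2 minus EA1 -2.32, adjusted p = 0.0734) or from EA3 (adjusted p = 0.317). In alectinib the 3 lines were not told apart in the level of Il18 either (adjusted p = 0.315), with means of 5.16 ± 1.29, 8.68 ± 3.86 and 5.40 ± 3.31 CPM (SD, n = 4 days) in EA1, EA2 and EA3. In DMSO the means were 0.633 ± 0.247, 5.04 ± 1.16 and 0.136 ± 0.110 CPM.

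Il1a, on chromosome 2 from 129299610 to 129309972 on the minus strand, was at or under 3 counts in all 16 libraries of EA1 and EA2. In EA3 its counts were 2, 1, 6 and 25 in DMSO and 2, 3, 6 and 3 in alectinib. The library of day 5 in DMSO held most of the DMSO counts, and the treatments overlapped. Summed over days, the depth-scaled ratio of alectinib to DMSO was 0.345 (95% counting interval 0.171 to 0.659), and without day 5 it was 1.09 (0.410 to 2.97). Of its exon bases, 11.2% overlap Gm14023 on the other strand, and the sources do not state the strand setting of the count.

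The list of 20 further genes of the IL-1 family, its receptors and the inflammasome had 12 tested. Alectinib raised 3 and lowered 3 in EA1, raised 1 and lowered 1 in EA2, and raised 0 and lowered 2 in EA3. The calls were thus 6, 2 and 2 of 12, where 33.6%, 24.4% and 32.6% of all genes were called. The medians were -0.22, -0.10 and -0.23, or -0.43, -0.04 and 0.10 with floor-level genes left out and a gene at 0 in 1 treatment set to its bound. The sign for EA3 depends on that choice. Il1b, Il36b, Il36g, Il36rn and Il1f10 were at or under 3 counts in every library.

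Il1rl1, the receptor of Il33, was at 0 counts in all 4 EA1 DMSO libraries and at 0 to 10 counts in alectinib, at least 5.62-fold higher against 3 counts over the group (adjusted p = 0.0148). That call was lost with all 26 libraries (adjusted p = 0.0973). In EA2 Il1rl1 rose from 2.61 ± 0.715 to 26.2 ± 8.68 CPM (log2 change 3.30, adjusted p = 0.00078), in the line where Il33 fell. EA3 had 0.242 ± 0.323 and 0.857 ± 0.567 CPM (adjusted p = 0.0894). Il1rap, the second chain of that receptor, rose in EA1 (log2 change 1.48, adjusted p = 0.00968) from 0.396 ± 0.195 to 1.13 ± 0.475 CPM, with 2 to 6 counts per DMSO library. Its call was lost without day 3 (0.133) and without a replicate block (0.0562).

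Casp1, which cleaves the Il18 precursor, rose in EA1 from 2.22 ± 1.01 to 7.44 ± 0.941 CPM (log2 change 1.81, adjusted p = 0.0161), a call lost without day 3 (0.0882) or day 5 (0.0648). It was at 0 counts in all 8 EA2 libraries and at most 3 counts in EA3. Nlrp3, an inflammasome sensor, fell in EA1 from between 8 and 46 counts to at most 1 count (adjusted p = 0.00179). In EA2 its libraries held 7 to 19 counts in DMSO and 0 to 6 in alectinib (adjusted p = 0.0791), and in EA3 at most 3 counts. The transcripts of the enzyme and of its substrate were thus both above the floor in alectinib in EA1 but not in EA2 or EA3.

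Il18rap, the accessory chain of the Il18 receptor, fell from 25.0 ± 12.3 to 11.2 ± 1.92 CPM in EA1 (log2 change -1.06, adjusted p = 0.0011) and from 53.1 ± 12.4 to 20.1 ± 6.46 CPM in EA3 (-1.41, adjusted p = 0.000129). EA2 had 74.1 ± 8.52 and 53.5 ± 5.28 CPM (-0.47, adjusted p = 0.0761). Il18r1, the chain that binds Il18, was at 0 counts in all EA1 libraries and at most 3 in EA2, and no effect on it was called. Sigirr, an inhibitory receptor of the family, fell in all lines, with log2 changes of -1.19, -2.34 and -1.61 (adjusted p = 0.0229, 0.000797 and 0.0125). The EA1 call of Sigirr was lost without day 2 (0.0898) or day 3 (0.062). The EA3 call was lost with the line alone (0.053) and without day 2 (0.0713), day 3 (0.0581) or day 5 (0.064).

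Csf1, the growth factor of macrophages, lies on chromosome 3 from 107741048 to 107760469 on the minus strand and was above the floor in all 24 libraries. In EA1 its level was 61.5, 49.0, 56.5 and 43.9 CPM in DMSO and 211, 121, 109.6 and 113 CPM in alectinib. In EA2 it was 245, 222, 150.3 and 162 CPM in DMSO and 662, 684, 1207 and 908 CPM in alectinib. In EA3 it was 60.7, 43.5, 48.8 and 50.7 CPM in DMSO and 444, 579, 607 and 774 CPM in alectinib. In each line the lowest alectinib library was above the highest DMSO library.

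Csf1 rose by a log2 change of 1.35 ± 0.25 in EA1 (standard error, adjusted p = 0.0012) and 2.13 ± 0.25 in EA2 (adjusted p = 5.98e-05). The rise in EA3 was 3.54 ± 0.27 (adjusted p = 2.97e-06). The effect differed between lines (adjusted p = 0.00618). EA3 exceeded EA1 by 2.19 (95% confidence interval 1.45 to 2.94, adjusted p = 0.00664) and EA2 by 1.41 (0.66 to 2.15, adjusted p = 0.0456). EA2 and EA1 were not told apart (0.78, interval 0.04 to 1.53, adjusted p = 0.179). The test between lines missed the threshold without day 5 (adjusted p = 0.0592). In alectinib the Csf1 level in EA3 was near that in EA2 (-0.47, interval -1.10 to 0.16, adjusted p = 0.205), and in DMSO EA3 was near EA1 (-0.05, interval -0.42 to 0.32, adjusted p = 0.849).

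Csf2, which encodes the granulocyte-macrophage factor, lies on chromosome 11 from 54247271 to 54249667 on the minus strand. In EA1 its counts were 7, 14, 485 and 109 in DMSO and 1, 0, 0 and 0 in alectinib. In EA2 they were 22, 19, 157 and 49 in DMSO and 4, 2, 0 and 0 in alectinib. In EA3 they were 31, 75, 123 and 282 in DMSO and 16, 13, 35 and 38 in alectinib. Treatments did not overlap in EA1 or EA2. In EA3, alectinib was lower on every day, but its libraries of days 3 and 5, at 3.29 and 4.11 CPM, were above the DMSO library of day 1 at 2.78 CPM.

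Summed over days, Csf2 in EA1 had 615 counts in DMSO and 1 in alectinib, which was 693-fold lower (95% counting interval 124 to 27397, without the spread between days). The sums were 247 and 6 in EA2, 35.0-fold lower (15.8 to 96.2), and 511 and 102 in EA3, 5.99-fold lower (4.83 to 7.48). The DMSO library of day 3 held 485 of the 615 counts in EA1 and 157 of the 247 in EA2. Without day 3, Csf2 was 151-fold lower in EA1 (26.6 to 5999) and 12.5-fold lower in EA2 (5.54 to 35.1), and without day 1 EA2 gave 93.0-fold (25.4 to 772) and EA1 had 0 counts in alectinib. Against libraries at 0, Csf2 in EA1 was at least 4.25-fold lower on day 2, at least 167-fold lower on day 3 and at least 56.0-fold lower on day 5, and in EA2 at least 46.5-fold and 12.5-fold lower on those days.

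Fitted log2 changes of Csf2 were -8.56 for EA1 (adjusted p = 0.000257) and -4.66 for EA2 (adjusted p = 0.00241). The EA3 value was -2.39 ± 0.65 (standard error, adjusted p = 0.0125). The first 2 depend on how counts near 0 are fitted, with -10.6 and -6.14 without day 1 and -6.67 and -3.51 without day 3. The EA3 call was lost in DESeq2 (adjusted p = 0.0996) and without day 2 (0.0543) or day 5 (0.0856). A difference of the effect between lines was called by a narrow margin (adjusted p = 0.0484) and was lost in 6 of 10 alternatives. Among these were the fits without day 2 (0.0983), day 3 (0.329) and day 5 (0.166) and the fit without a replicate block (0.162). Another was the fit with all 26 libraries (0.202), which takes as EA3 the day 7 libraries that stood nearer to EA2. Of its exon bases, 12% overlap Gm12223 on the other strand.

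Csf3, the growth factor of neutrophils, lies on chromosome 11 from 98701263 to 98703629 on the plus strand. In EA1 it was near the floor throughout, at 0, 4, 3 and 3 counts in DMSO and 4, 2, 1 and 0 in alectinib. In EA2 its counts were 58, 28, 107 and 85 in DMSO and 9, 3, 5 and 12 in alectinib. In EA3 its level was 14.7, 115, 42.0 and 74.5 CPM in DMSO and 8.04, 9.05, 11.8 and 8.76 CPM in alectinib. Treatments did not overlap in EA2 or EA3. Csf3 fell by a log2 change of -2.98 ± 0.58 in EA2 (standard error, adjusted p = 0.0023). It fell by -2.38 ± 0.49 in EA3 (adjusted p = 0.00256), and both calls held with each day left out. In EA1, on these few counts, the change was -0.60 (adjusted p = 0.683), and it ran from -1.74 without day 1 to -0.01 without day 5 (adjusted p = 0.203 and 1). No difference of the Csf3 effect between lines was called (adjusted p = 0.435).

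Of 12 further genes of the colony-stimulating factor system, 7 were tested. Alectinib raised 1 and lowered 3 in EA1, raised 1 and lowered 0 in EA2, and raised 1 and lowered 2 in EA3. Of all genes tested, 33.6%, 24.4% and 32.6% were called, beside 4, 1 and 3 of these 7. Their medians were 0.00, -0.04 and 0.39, or -0.46, 0.25 and 0.39 without genes at the floor in all 8 libraries of a line, so that the sign for EA1 and EA2 depends on those genes. Csf2rb2, Csf3r, Il3 and Il5 were at or under 3 counts in all libraries. The receptor of Csf1, Csf1r, was at 0 counts in all 8 EA1 libraries, at most 6 counts in EA2 and at most 73 counts in EA3, with no effect called.

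Il34, the other ligand of the Csf1 receptor, moved against Csf1 in EA1 and EA3. It fell in EA1 from 7.53 ± 8.56 to 0.300 ± 0.216 CPM (log2 change -4.33, adjusted p = 0.000894) and in EA3 from 15.1 ± 8.75 to 3.80 ± 0.452 CPM (-1.78, adjusted p = 0.0181), where the call was lost without day 3 (0.0577) or day 5 (0.101). The EA1 change of Il34 rests on 0 to 5 counts per alectinib library, and 154 of the 249 DMSO counts came from day 5. EA2 had 38.4 ± 19.5 and 16.9 ± 3.17 CPM (-1.08, adjusted p = 0.125). Csf2ra, the chain that binds the Csf2 product, rose by a log2 change of 1.00 in EA2 (adjusted p = 0.0194), and the EA3 change was 1.02 (adjusted p = 0.0137). In EA2 it was lost without a replicate block (0.134) and without day 1 (0.115) or day 3 (0.0864). In EA3 Csf2ra was lost without a block (0.146), with the line alone (0.0525), and without day 1 (0.0512) or day 3 (0.103). Csf2rb, the signaling chain, had at most 6 counts in any library.

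Il5ra, the receptor chain that binds Il5, fell from 320 ± 139 to 6.62 ± 2.11 CPM in EA1 (log2 change -5.54, adjusted p = 4.51e-06) and from 105 ± 65.0 to 7.35 ± 3.31 CPM in EA3 (-3.75, adjusted p = 2.39e-05), and it had at most 1 count in EA2. Kitl, the ligand of the Kit receptor, rose in EA1 from 71.9 ± 16.1 to 206 ± 66.0 CPM (1.49, adjusted p = 0.00243). Flt3l, a growth factor of dendritic cells, fell in EA1 (-1.37, adjusted p = 0.0366), but that call was lost without any 1 day (adjusted p from 0.0657 to 0.115) and with library size alone (0.0511).

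**Figure D4:**
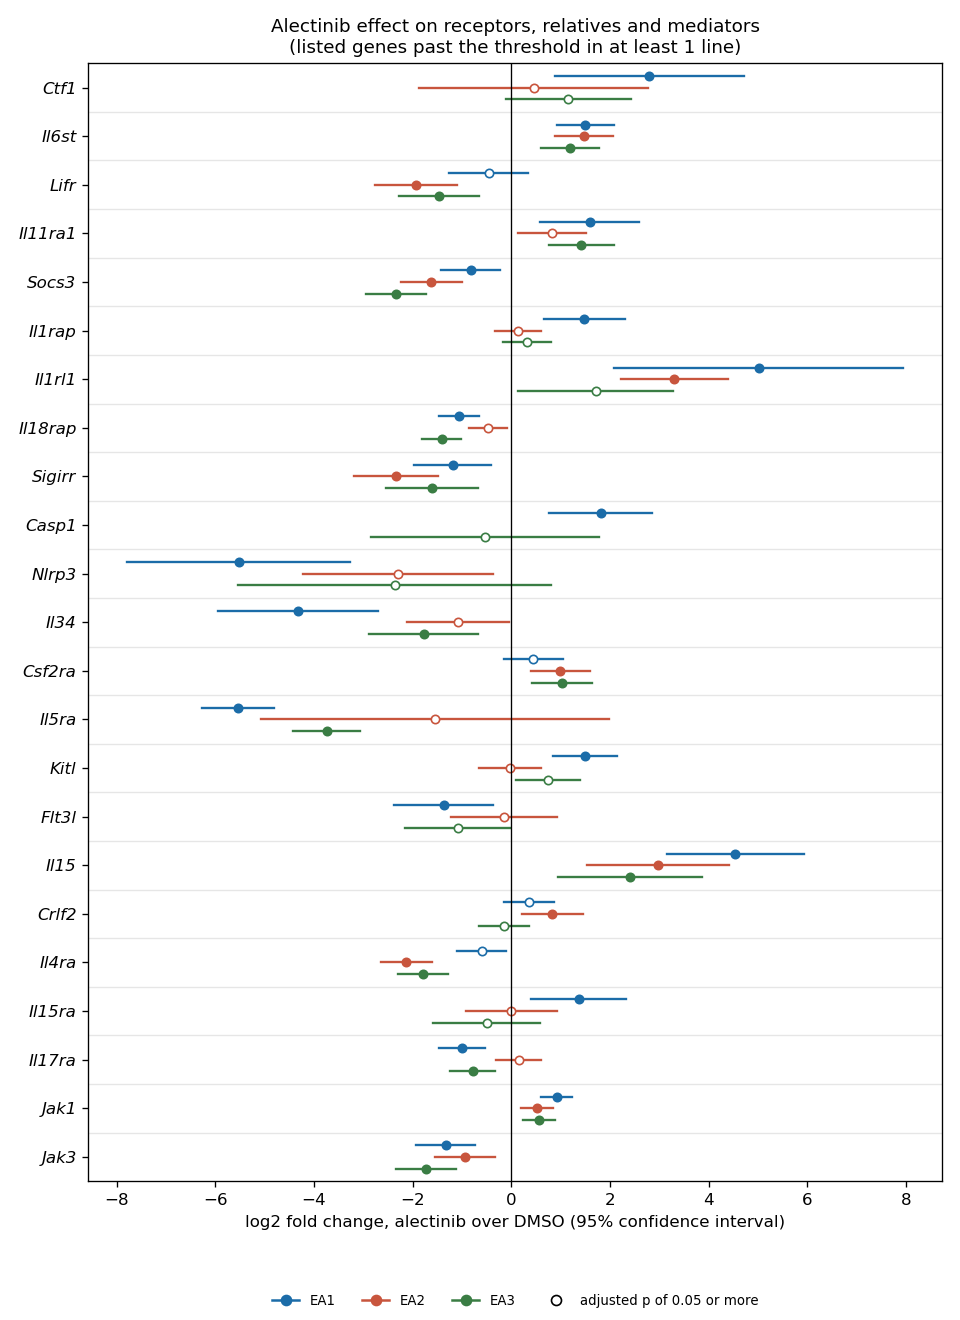
Log2 fold change of alectinib over DMSO with its 95% confidence interval for the receptors, relatives and mediators that passed the threshold in at least 1 line, in the order of the lists (IL-6 family, IL-1 family, colony-stimulating factors, TSLP and common gamma chain). Filled points have an adjusted p under 0.05. Il6st, Il15 and Jak1 lie above 0 and Socs3, Sigirr and Jak3 below 0 in all 3 lines. Casp1 in EA2 has no point because all libraries held 0 counts, and the Il1rl1 value in EA1 is not a bound.

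Tslp lies on chromosome 18 from 32815383 to 32819797 on the plus strand and reached at most 19 counts. In EA1 its counts were 0, 1, 8 and 6 in DMSO and 1, 0, 4 and 3 in alectinib. In EA2 they were 9, 7, 19 and 17 in DMSO and 1, 1, 2 and 4 in alectinib, and in EA3 they were 2, 7, 5 and 7 in DMSO and 0, 2, 5 and 0 in alectinib. Only in EA2 did the treatments not overlap. There, 8 counts in alectinib against 52 in DMSO gave a level 5.52-fold lower (95% counting interval 2.60 to 13.5). The ratio was 3.58-fold lower in EA3 (1.47 to 9.98) and 2.11-fold lower in EA1 (0.84 to 5.75). The EA3 value was 9.07-fold without day 3 and 2.24-fold without day 5 (0.847 to 6.57).

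Tslp failed the filter. With no filter on low counts, the EA2 effect was past the threshold (log2 change -2.42, adjusted p = 0.0241), and the effects in EA1 and EA3 were not (adjusted p = 0.669 and 0.106). Without day 2, which let the gene pass the filter, the EA2 value was -2.42 as well, with an adjusted p of 0.0662.

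The list headed TSLP and common gamma chain held 17 genes, of which 9 were tested. It includes Il13, Il25, Il17ra and Il17rb, which belong to neither group. Alectinib raised 3 and lowered 2 in EA1, raised 3 and lowered 2 in EA2, and raised 2 and lowered 3 in EA3, with medians of 0.36, 0.15 and -0.15 (0.36, 0.15 and -0.32 without genes at the floor). That made 5 of 9 in each line, against 33.6%, 24.4% and 32.6% of all genes. Il25, Il9, Il13, Il21, Il7r and Il17rb were at or under 3 counts in all libraries. Il7r encodes the chain that completes the TSLP receptor.

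Crlf2, the TSLP-binding chain, was 12.4 ± 2.36 and 15.8 ± 1.53 CPM in EA1, 1.68 ± 0.916 and 2.79 ± 0.391 CPM in EA2 and 16.0 ± 3.38 and 14.4 ± 2.96 CPM in EA3, in DMSO and alectinib. Its EA2 effect was called (log2 change 0.83, adjusted p = 0.0468) and lost in 8 of 11 alternatives, among them the fits without day 2 (0.112), day 3 (0.172) and day 5 (0.30). Il15, a growth factor of natural killer and memory T cells, rose in all lines. Its mean in EA1 went from 0.612 ± 0.749 to 12.3 ± 6.24 CPM. EA2 went from 0.324 ± 0.0718 to 2.97 ± 2.04 CPM, and EA3 from 0.340 ± 0.171 to 1.99 ± 1.38 CPM. The DMSO libraries were at or near the floor, with 0 to 13 counts of Il15 in EA1, 2 to 5 in EA2 and 1 to 4 in EA3, so that the fitted changes rest on few DMSO counts. The log2 changes were 4.54, 2.98 and 2.41 (adjusted p = 0.000214, 0.00542 and 0.0152), and the calls were lost in EA2 without day 1 (0.0511) and in EA3 without day 1 (0.0621) or day 5 (0.0633).

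Il15ra, which presents Il15, rose in EA1 (log2 change 1.37, adjusted p = 0.0309), a call lost without day 3 (0.153) or day 5 (0.131). EA2 and EA3 had 0.00 and -0.50 (adjusted p = 1 and 0.48), and a difference between lines was not detected (adjusted p = 0.169). The fall of Il4ra in EA2 was -2.13 (adjusted p = 4.01e-05) and its EA3 change was -1.79 (adjusted p = 0.000133). In EA1 it was 202 ± 51.1 and 131 ± 18.9 CPM (-0.60, adjusted p = 0.0571), and the effect differed between lines (adjusted p = 0.025). Il17ra fell in EA1 (-1.0, adjusted p = 0.00326) and EA3 (-0.78, adjusted p = 0.013), the latter lost without day 2 (0.0516) or day 5 (0.0784).

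Jak1 and Jak3, the kinases in this list, moved apart. The log2 changes of Jak1 were 0.92, 0.52 and 0.57 for EA1, EA2 and EA3, a rise in each (adjusted p = 0.000572, 0.0204 and 0.0113). Jak3 fell, with log2 changes of -1.33, -0.94 and -1.72 (adjusted p = 0.00305, 0.0284 and 0.000606). The EA2 call of Jak1 was lost with no filter (0.0552) and without day 1 (0.0787), day 3 (0.0592) or day 5 (0.111). Its EA3 call was lost with the line alone (0.0706) and without day 2 (0.152) or day 5 (0.0552). The EA2 call of Jak3 was lost without a replicate block (0.0736) and without day 2 (0.0961) or day 5 (0.162).

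Levels between genes were compared as CPM per kilobase of exon. In EA1 DMSO, Csf2 had 21.3 ± 30.0, Lif 14.0 ± 10.1, Csf1 9.99 ± 1.48 and Il33 8.34 ± 2.81 (SD, n = 4 days), and these neighbours did not differ beyond their spread. Every other member was under 1 there. In EA2 DMSO the order was Csf1 at 36.9 ± 8.71, Il33 at 28.9 ± 8.61, Lif at 14.4 ± 4.47, Csf2 at 7.73 ± 8.04, Il18 at 4.89 ± 1.12 and Csf3 at 4.85 ± 2.05. Among these, the step from Il33 to Lif was the 1 that exceeded the sum of the neighbours' SDs. In EA3 DMSO, Csf3 had 43.5 ± 30.5, Lif 36.6 ± 30.8, Csf2 23.2 ± 24.3, Il33 22.9 ± 8.58 and Csf1 9.64 ± 1.36, of which the neighbours Il33 and Csf1 alone differed beyond their spread.

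In alectinib the order had changed. Il33 led in EA1 with 91.8 ± 50.7 CPM per kilobase, above Csf1 with 26.2 ± 9.12 and Il18 with 5.00 ± 1.25. Csf1 led in EA2 with 164 ± 48.0 and in EA3 with 114 ± 25.7. Next in EA2 were Il18 with 8.42 ± 3.74, Il33 with 4.34 ± 3.65 and Lif with 3.45 ± 1.00, and next in EA3 were Il33 with 23.5 ± 26.3, Lif with 9.40 ± 4.20 and Csf3 with 6.66 ± 1.15. The gap between the leading member and the next exceeded the sum of their SDs in each of the 3 lines.

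Within DMSO, 5 of the 7 tested members differed between lines, where 55.6% of all genes did. Between pairs of lines, 4 members differed for EA2 and EA1 (40.8% of genes), 4 for EA3 and EA1 (32.6%) and 4 for EA3 and EA2 (36.5%). Csf3 was higher in EA3 than in EA2 by a log2 difference of 2.88 (adjusted p = 0.000357), and EA1, with at most 4 counts, was the lowest. Csf1 was higher in EA2 than in EA1 by 1.83 (adjusted p = 5.18e-06), and Il18 was higher in EA2 than in EA1 by 2.95 (adjusted p = 0.000234). For Il33, EA2 exceeded EA1 by 1.72 (adjusted p = 0.000506) and EA3 exceeded EA1 by 1.41 (adjusted p = 0.00255). Lif was higher in EA3 than in EA1 by 1.29 (adjusted p = 0.0109), but the test over the 3 lines (adjusted p = 0.0117) was lost without day 2 (0.0677), day 3 (0.0552) or a replicate block (0.0691). Csf2 was not called (adjusted p = 0.104) except without day 3 (0.0148) and with no filter on low counts (1.99e-06), and Il11 was not called (adjusted p = 0.996).

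Within alectinib, 5 of the 6 tested members differed between lines, against 63.2% of all genes. The pairs gave 3 members for EA2 and EA1 (47.8% of genes), 5 for EA3 and EA1 (38.6%) and 3 for EA3 and EA2 (44.3%). Il33 was lower in EA2 than in EA1 (log2 difference -4.24, adjusted p = 0.00351) and lower in EA3 than in EA1 (-2.28, adjusted p = 0.0383), the reverse of the order in DMSO. Csf1 was higher than EA1 in EA2 by 2.59 (adjusted p = 0.000138) and in EA3 by 2.13 (adjusted p = 0.00061). Lif was highest in EA3, by 1.93 over EA1 (adjusted p = 0.00043) and by 1.45 over EA2 (adjusted p = 0.00146). Csf3 was higher in EA3 than in EA2 by 3.53 (adjusted p = 0.00108), and Csf2, above the floor in all EA3 libraries and in 1 of 8 in the other lines, was higher in EA3 than in EA2 by a fitted 3.86 (adjusted p = 0.0121).

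A slope of the difference between treatments on log2 days was tested for the 7 members in each line and none was called. Calls over all genes were as rare, at 0.0210% in EA1, 0% in EA2 and 0.0491% in EA3. At an unadjusted p under 0.05 there were 4 members in EA1, 4 in EA2 and 2 in EA3 in edgeR, and no other tool was run on these slopes. The share of all genes at that unadjusted threshold was not taken, so these counts have no background beside them.

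For the 6 members with at least 10 counts in at least 12 libraries, the genes with the most similar log2 CPM over the 24 libraries were listed. The libraries share lines, treatments and days, so the correlations are descriptive. Lif was most like Creb5 (Pearson r = 0.943), Mgat4A (0.933) and Prss22 (0.93), and Csf2 was also most like Creb5 (0.934), followed by Tmem179 (0.923) and Csn3 (0.913). Csf1 was nearest to Gm9949 (0.93), Tgfb3 (0.925) and Zfp229 (0.912), and Csf3 to Tmem51 (0.94), Disp2 (0.94) and Fkbp11 (0.931). Il18 was nearest to Mgrn1 (0.935), Arhgap24 (0.916) and Tmeff2 (0.885). Il33 had the least similar neighbours of the 6, Adarb1 (0.84), Gas2 (0.826) and Echdc2 (0.817).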

How the data were processed

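RNA was measured in 26 libraries, 24 of which entered the fits. According to the labels and the study's methods, the authors trimmed reads with bbduk, checked them with FastQC, aligned them to mm10 and counted them per gene with STAR, and the deposited table holds raw counts without normalization. The strand column and the annotation release are not given in the sources used here. Of 55415 rows, 24 carried dates in place of symbols (0.129 to 0.201% of counts) and were left out.

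Counts were analysed with edgeR 4.0.16 in R 4.3.3 (TMM scaling, filterByExpr with a minimum count of 10, robust quasi-likelihood fit). The model had 12 blocks of line and day and 1 alectinib effect per line. Levels between lines were tested within each treatment (12886 genes in DMSO, 13486 in alectinib), and courses as slopes on log2 days. Levels per kilobase used exon lengths of GENCODE M21. Adjusted p-values are Benjamini-Hochberg over all genes tested, and tests used a threshold of 0.05. Ratios of summed counts carry exact binomial 95% counting intervals, which leave out the spread between days. DESeq2 1.42.0, other scalings, filters and designs, and each day left out were tried as alternatives. Ratios of summed counts with each day left out were added after seeing the data. The scripts were tested on simulated data. Companion genes are described with their effects where called in at least 1 line, and others are named for their counts or as not called, some of them after their values were seen. From the companion lists, 1 gene is not reported here and was left out of their counts and medians, and the genotype of the mice is not reported here. The members and lists were chosen with earlier results of these data known.

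The DMSO and alectinib libraries of 1 line and day carry a common number in the labels but no stated culture. The correlation of their deviations from the group means ran from -0.300 to 0.549 (median 0.111). As a check for a library deposited more than once, libraries of a group were compared and gave a chi-square of at least 9.51 per gene. They come from different days, so this says nothing about replicate quality. Libraries of different groups and those labelled day 7 were not compared in this way, so the check could not find a repeat among them.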

Additional observations from a re-analysis of the deposited data

Results flagged for a closer look

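Of 52 groups of 4 libraries examined, 7 held a library far from the other 3 (Dixon's test at the 95% level, which chance passes in about 1 of 20 groups). Il33 in EA2 alectinib was 28.2 CPM on day 1, where the other days had 5.96 to 8.48 CPM. Il33 in EA3 alectinib was 182 CPM on day 5, where the others had 25.0 to 32.3 CPM. Csf1 in EA1 alectinib was 211 CPM on day 1, against 109.6 to 121 CPM. Csf2 in EA2 DMSO was 15.7 CPM on day 3, against 1.97 to 4.21 CPM. The other 3 rested on few counts. Il1a in EA3 DMSO was 4.12 CPM on day 5 (25 counts), against 0.117 to 0.792 CPM. Il11 in EA1 DMSO was 2.46 CPM on day 5 (19 counts), against 0.105 to 0.334 CPM, and in EA3 DMSO it was 1.45 CPM on day 3 (11 counts), against 0.330 to 0.359 CPM.

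The alectinib effect differed between lines for Il33 (adjusted p = 0.00251), Csf1 (adjusted p = 0.00618), Il18 (adjusted p = 0.019) and Csf2 (adjusted p = 0.0484), tested in edgeR with 2 degrees of freedom.

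The library labelled EA3 alectinib day 7, which entered no main fit, held 2.79 CPM of Il6, above the highest EA3 DMSO library at 0.467 CPM. It held 12.4 CPM of Il18, above 3.02 CPM, and 739 CPM of Csf1, above 140.3 CPM. For Il18 and Csf1 the highest of these DMSO libraries was itself the one labelled day 7. Both libraries labelled day 7 stood nearer to EA2 than to EA3. The highest EA2 DMSO values were 0.344 CPM of Il6, 6.22 CPM of Il18 and 245 CPM of Csf1.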

How the results depend on the processing

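Each day left out in turn is written here as that day missing from every line. Of the 15 called effects on members, 165 of 172 alternative values kept the direction and the call, 7 lost the call and 0 reversed. For the 4 differences between lines, 31 of 42 kept the call, and for the 10 differences of level, 93 of 96. For the companion genes, 438 of 500 did. With at least 10 counts in every library, 3 members were tested, and 3 changed in EA1, 3 in EA2 and 2 in EA3, 2 differed in effect between lines, 3 in level in DMSO and 3 in alectinib. With all 26 libraries, where those labelled day 7 count as EA3 though they stood nearer to EA2, 2 members differed in effect between lines. With days left out, 5 changed in EA1, 4 to 6 in EA2 and 3 to 5 in EA3, and 1 to 4 differed between lines. For these counts of members, and those of the next paragraph, the share of all genes called was not taken.

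Without the replicate block, 5 members changed in EA1, 5 in EA2 and 5 in EA3, 3 differed in effect between lines, 4 in level in DMSO and 5 in alectinib. In EA3, 1 slope of the alectinib effect was called with no filter on low counts, and with days left out 0 to 1 was. The slopes of levels with days left out were chosen after seeing the data. They gave 0 to 2 calls in EA1 DMSO, 0 to 2 in EA3 DMSO and 0 to 1 in EA3 alectinib. Effects of alectinib that were not called turned their sign for Il33 in EA3 without the block (0.037) and for Il11 in EA1, which ran from -0.96 to 0.84 with days left out. Slopes that were not called turned their sign too, among them Il33 in EA3 without day 5 (-0.21), Csf3 in EA3 without day 1 (0.34) and the Lif level in EA3 alectinib without day 5 (0.40). Other causes of these shifts were not tested. Counts at the floor limit Il6, Il1a, Il11 and Tslp in all lines, Csf2 under alectinib in EA1 and EA2, Csf3 in EA1 and Il18 in DMSO in EA1 and EA3.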

Other observations

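The library labelled EA3 DMSO day 7 held 122 CPM of Il33, 115 CPM of Lif, 140.3 CPM of Csf1, 30.8 CPM of Csf2, 3.02 CPM of Il18 and 1.89 CPM of Csf3. The one labelled EA3 alectinib day 7 held 17.6 CPM of Il33, 15.4 CPM of Lif, 739 CPM of Csf1, 0.0846 CPM of Csf2 (1 count), 12.4 CPM of Il18 and 0.677 CPM of Csf3. Il6 was at 2 and 33 counts, Tslp at 12 and 4, Il11 at 13 and 1, and Il1a at 1 and 0 in DMSO and alectinib.

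Values for the scarce members with no filter on low counts were computed too. The log2 changes of Il1a were 0.58 in EA1, -1.09 in EA2 and -1.08 in EA3 (edgeR, adjusted p = 0.924, 0.962 and 0.714), and its DMSO level differed between lines (adjusted p = 0.00539), where 25 of the 44 DMSO counts came from the EA3 library of day 5.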
